A study of Homo sapiens with 6 samples.

Results

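NAGPA, GNPTG, GNPTAB, IGF2R, M6PR, SORT1, SUMF1 and SUMF2 are 8 genes of mannose 6-phosphate tagging and sorting, out of 57773 genes counted by RNA-seq in HEK293 cells. They were taken by name from the count table, and all 8 were among the 22010 genes with enough counts to be tested. The group was chosen by measured values, since it was put together after genes of this pathway had been seen to differ between the ZNF507-disrupted and the control libraries. Values from that comparison, and from any other that uses the ZNF507-disrupted libraries, are therefore given as a description, with no test for these genes. The comparison of ZNF146-disrupted cells with the control played no part in the choice and was tested, although it shares the control libraries.

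HEK293 is a line derived from human embryonic kidney. The study asked how the transcriptome responds when ZNF146 or ZNF507, both zinc finger proteins that bind DNA, is disrupted with Cas9. Cells were transiently transfected with plasmids carrying Cas9 and a puromycin resistance gene. The plasmids also carried 4 guides to cut ZNF146 in the group sgZNF146, 4 to cut ZNF507 in the group sgZNF507, and none in the empty vector group EV, so that the control cells also received Cas9 and the drug. Puromycin was given for 36 h from the day after transfection, and the cells grew for 2 weeks before RNA was taken. Each library therefore comes from an uncloned population in which cells can carry different alleles, and each group has 2 libraries, from biological duplicates.

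Most soluble lysosomal enzymes are marked in the Golgi by mannose 6-phosphate. GlcNAc-1-phosphotransferase, whose catalytic subunits come from GNPTAB and whose gamma subunit comes from GNPTG, adds a phosphate covered by N-acetylglucosamine, and the uncovering enzyme encoded by NAGPA removes the cover. The exposed mark is bound by 2 receptors, the large cation-independent receptor encoded by IGF2R, which also binds insulin-like growth factor 2, and the small cation-dependent receptor encoded by M6PR. Sortilin, encoded by SORT1, carries some lysosomal proteins without the mark. SUMF1 encodes the formylglycine-generating enzyme that activates sulfatases in the endoplasmic reticulum, and SUMF2 encodes its relative, which lacks that activity.

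The libraries held 22724439 to 28524025 counts. ZNF507 was lower in sgZNF507 than in EV (log2 fold change -0.62 with a standard error of 0.07, edgeR quasi-likelihood test, Benjamini-Hochberg adjusted p = 0.00195). ZNF146 was not detectably lower in sgZNF146 (-0.13, standard error 0.08, adjusted p = 1 from the same edgeR test), and a count of its RNA does not show whether its protein was lost. The paper reports ZNF146 and ZNF507 as essentially undetectable by western blot where each was targeted, with frequent indels at the guide sites. Of the markers of HEK293 cells, VIM was found at 981 to 1139 CPM (counts scaled to the library total), KRT18 at 77.2 to 93.9 CPM, KRT8 at 60.2 to 78.7 CPM, NEFM at 66.5 to 77.0 CPM and PAX2 at 5.31 to 8.14 CPM. NEFL and LHX1 were not matched by symbol. Among markers of fibroblasts, blood, endothelium and hepatocytes, COL1A1 had 57.1 to 74.0 CPM, PECAM1 was not matched, and no other was above 2.51 CPM in any library.

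In sgZNF507, one gene of each pair of partners was higher than in EV and the other was near its EV level. GNPTG was 1.76-fold higher while GNPTAB was 1.02-fold of EV, IGF2R was 1.33-fold higher while M6PR was 0.981-fold of EV, and SUMF1 was 1.78-fold higher while SUMF2 was 1.01-fold of EV. NAGPA, which has no partner among these genes, was 2.24-fold higher, and SORT1 was 1.04-fold of EV. The 4 higher genes had an adjusted p under 0.05 in the comparison that led to their choice, in which 0.114% of all tested genes were called higher and 0.182% were called in either direction. No test of these genes is drawn from that count. In bulk RNA of a mixed population, more cells with a message and more of it per cell cannot be told apart. In sgZNF146 none of the 8 was called.

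The starts of these genes can be read beside the values. RefSeq, on the build GRCh38.p14, gives windows of 300 bases around the annotated starts, from 250 bases before to 50 after. All 8 genes were matched, with a pair of windows each for M6PR and SORT1 and a single one for the rest. The stretches below end at the last base before the start and are written 5′ to 3′ on the strand of the gene. They are shown because the palindrome CACGTG, which is the same on both strands and is printed in capitals, occurs in the window of each of the 4 higher genes. CACGTG is the core of the E-box, which basic helix-loop-helix proteins bind. The motif was picked after these sequences were read.
NAGPA, chr16:5033936-5033995, minus strand: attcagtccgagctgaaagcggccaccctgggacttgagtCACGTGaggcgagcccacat
GNPTG, chr16:1351871-1351930, plus strand: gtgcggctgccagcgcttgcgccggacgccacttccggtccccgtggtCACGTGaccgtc
SUMF1, chr3:4467270-4467329, minus strand: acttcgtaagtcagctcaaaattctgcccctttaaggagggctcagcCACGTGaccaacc
IGF2R, chr6:159968940-159969081, plus strand: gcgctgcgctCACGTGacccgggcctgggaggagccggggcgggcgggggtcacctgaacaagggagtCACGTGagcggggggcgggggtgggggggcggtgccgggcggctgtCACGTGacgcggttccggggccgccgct
GNPTAB, chr12:101830960-101831019, minus strand: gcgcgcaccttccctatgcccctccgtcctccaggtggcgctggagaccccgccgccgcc
SUMF2, chr7:56064226-56064285, plus strand: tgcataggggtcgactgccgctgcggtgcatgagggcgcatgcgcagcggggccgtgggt
M6PR, chr12:8949411-8949500, minus strand, second window: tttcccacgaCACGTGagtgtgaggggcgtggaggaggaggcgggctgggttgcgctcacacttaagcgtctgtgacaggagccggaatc

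Counted from the start, the base before it being -1, the motif begins at -20 in NAGPA, at -12 and 5 in GNPTG, at -13 in SUMF1 and at -132, -74 and -28 in IGF2R. The longer form TCACGTGA, which contains CACGTG, was present in NAGPA, GNPTG and IGF2R at each of these positions and was absent from SUMF1. Neither form was found in the windows of GNPTAB, SORT1 and SUMF2 or in the first window of M6PR, while the second window of M6PR held CACGTG once, at -80. CACGTG was found in 7.26% of all 35116 windows and TCACGTGA in 0.980%. Counted per gene, as the members are here, 11.9% of 13158 tested genes with a window held CACGTG and 2.01% held TCACGTGA. A match of letters is not a binding site, and an absence says only that the letters are not in this window.

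GNPTG and GNPTAB encode subunits of the same enzyme. GNPTG (chr16:1401932-1415738, plus strand, on GRCh37 as are the gene spans that follow) was counted 786 and 918 times in EV, 752 and 871 times in sgZNF146 and 1263 and 1706 times in sgZNF507. Scaled to the TMM-normalised library size, as all later CPM values are, these were 31.6 and 33.2 CPM in EV, 29.6 and 34.6 CPM in sgZNF146 and 54.8 and 58.9 CPM in sgZNF507. Both sgZNF507 libraries stood above all others, which overlapped among themselves. The log2 fold change against EV was 0.81 (standard error 0.09).

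GNPTAB (chr12:102139277-102224737, minus strand) was counted 1248 and 1349 times in EV, 1328 and 1356 times in sgZNF146 and 1132 and 1489 times in sgZNF507. It had 50.1 and 48.8 CPM in EV, 52.3 and 53.9 CPM in sgZNF146 and 49.1 and 51.4 CPM in sgZNF507. The sgZNF507 and EV libraries overlapped, and the sgZNF146 libraries were slightly above both. Its fold change in sgZNF507 was 1.02, with a 95% interval of 0.910 to 1.14. Counts per exon length gave a GNPTG to GNPTAB ratio of 1.08 and 1.16 in the EV libraries, 0.968 and 1.10 in sgZNF146, and 1.91 and 1.96 in sgZNF507. On this scale the gamma subunit's messages were about level with those of the catalytic precursor in EV and sgZNF146, and above them in sgZNF507.

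NAGPA (chr16:5074845-5084142, minus strand) was counted 717 and 972 times in EV, 751 and 840 times in sgZNF146 and 1611 and 2127 times in sgZNF507. Its levels were 28.8 and 35.2 CPM in EV, 29.6 and 33.4 CPM in sgZNF146 and 69.9 and 73.4 CPM in sgZNF507. Each sgZNF507 library was well above every other library, although the EV libraries were spread more widely for NAGPA (32.0 ± 4.49 CPM, SD, n = 2) than for GNPTG (32.4 ± 1.15 CPM, SD, n = 2). The log2 fold change was 1.16 (standard error 0.10).

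**Figure D1:**
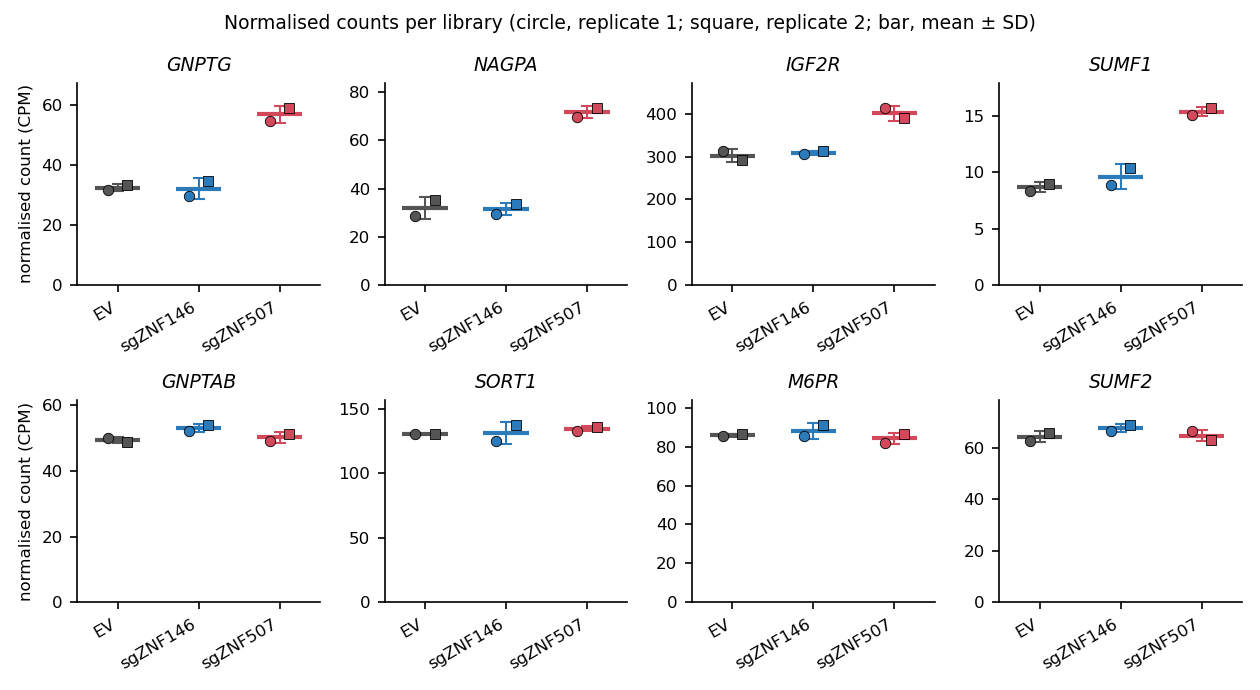
Normalised counts (CPM, linear axis from 0) of the 8 genes in each library, by group (circle, replicate 1; square, replicate 2; bar, mean ± SD, n = 2). In the upper row the sgZNF507 libraries of GNPTG, NAGPA, IGF2R and SUMF1 lie above all others (NAGPA at 69.9 and 73.4 against at most 35.2 CPM), while in the lower row GNPTAB, SORT1, M6PR and SUMF2 stay near their EV levels.

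The receptors divided in the same manner. IGF2R (chr6:160390114-160534539, plus strand) was counted 7804 and 8034 times in EV, 7739 and 7852 times in sgZNF146 and 9518 and 11282 times in sgZNF507. It had 313 and 291 CPM in EV, 305 and 312 CPM in sgZNF146 and 413 and 389 CPM in sgZNF507. Both sgZNF507 libraries were above the others by more than the spread within any group, and the log2 fold change was 0.41 (standard error 0.06).

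M6PR (chr12:9092959-9102551, minus strand) had 85.5 and 86.5 CPM in EV, 85.4 and 91.0 CPM in sgZNF146 and 82.2 and 86.4 CPM in sgZNF507. The 3 groups overlapped, and the fold change in sgZNF507 was 0.981 with a 95% interval of 0.888 to 1.08. Per exon length, the IGF2R to M6PR ratio was 0.613 and 0.561 in EV, 0.596 and 0.573 in sgZNF146, and 0.839 and 0.753 in sgZNF507. M6PR messages outnumbered those of IGF2R in every library on this scale.

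SORT1 (chr1:109852190-109940540, minus strand) had 130 and 130 CPM in EV, 125 and 137 CPM in sgZNF146 and 133 and 136 CPM in sgZNF507. Its sgZNF507 libraries stood just above those of EV without overlap, but the fold change was 1.04 with a 95% interval of 0.940 to 1.14. The sgZNF146 libraries spanned both.

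SUMF1 (chr3:3742498-4508957, minus strand) had the fewest counts of the 8, with 208 and 248 in EV, 224 and 262 in sgZNF146 and 348 and 455 in sgZNF507. These were 8.36 and 8.97 CPM in EV, 8.83 and 10.4 CPM in sgZNF146 and 15.1 and 15.7 CPM in sgZNF507. The sgZNF507 libraries were again above all others, and the log2 fold change was 0.83 (standard error 0.12).

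SUMF2 (chr7:56131695-56148363, plus strand) had 62.7 and 65.7 CPM in EV, 66.4 and 68.6 CPM in sgZNF146 and 66.3 and 63.1 CPM in sgZNF507. Its sgZNF507 and EV libraries overlapped, with a fold change of 1.01 and a 95% interval of 0.906 to 1.12. The SUMF1 to SUMF2 ratio per exon length was 0.0786 and 0.0807 in EV, 0.0785 and 0.0896 in sgZNF146, and 0.135 and 0.147 in sgZNF507. The active enzyme's messages were far fewer than those of its relative in each library.

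**Figure D2:**
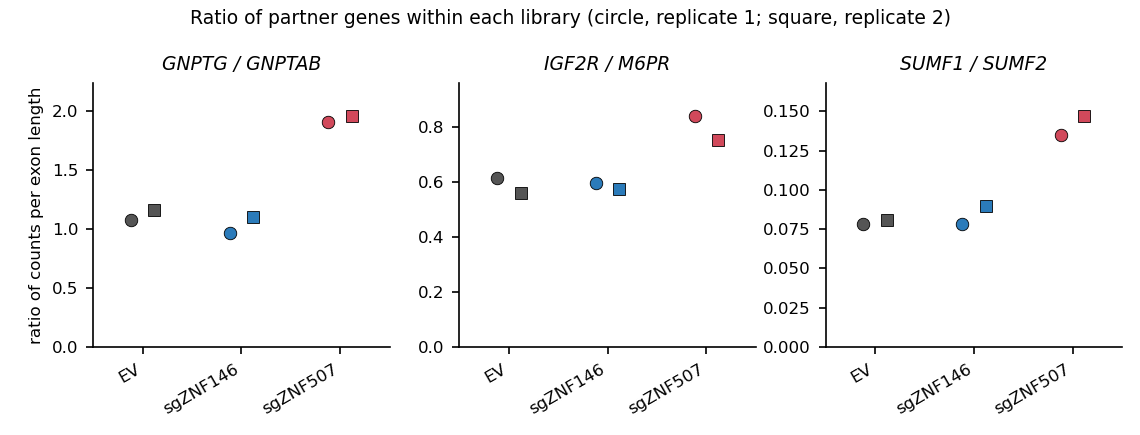
Ratio of counts per exon length within each library for GNPTG to GNPTAB, IGF2R to M6PR and SUMF1 to SUMF2 (linear axes from 0; circle, replicate 1; square, replicate 2). The sgZNF507 libraries are the highest in each panel, at 1.91 and 1.96, 0.839 and 0.753, and 0.135 and 0.147, and the EV and sgZNF146 libraries lie close together.

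Over the 8 genes, the median log2 fold change in sgZNF507 was 0.23, against 0.00 over all tested genes. Both sgZNF507 libraries were above both EV libraries for 5 of the 8, NAGPA, GNPTG, IGF2R, SORT1 and SUMF1, which was the case for 14% of all tested genes. Neither count is evidence about the group, which was selected on this comparison. Except for NAGPA, the calls of the 4 higher genes also depended on single libraries. With an EV library or sgZNF507 replicate 1 left out, fewer of them passed the threshold. Fewer of all tested genes passed it in these fits as well, in which a group is left with a lone library. The fold changes of the 4 genes kept their direction throughout, at 1.03 to 1.31 for NAGPA, 0.77 to 0.86 for GNPTG, 0.78 to 0.88 for SUMF1 and 0.35 to 0.47 for IGF2R on the log2 scale.

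In sgZNF146 the estimates for all 8 genes lay close to their EV levels. Log2 fold changes in sgZNF146 against EV were -0.02 for NAGPA, -0.01 for GNPTG, 0.01 for SORT1, 0.03 for IGF2R, 0.04 for M6PR, 0.07 for SUMF2, 0.10 for GNPTAB and 0.15 for SUMF1. None passed the threshold, each adjusted p being 1 (the edgeR quasi-likelihood test, Benjamini-Hochberg over 22010 genes), and 0 of the 8 had an unadjusted p under 0.05. Nor was any other gene called, so that the share called was 0% of tested genes, although 535 genes had an unadjusted p under 0.05. DESeq2 called 0 genes on the 6 libraries and 3 on the 4 compared, while edgeR called 19 without the filter on low counts and 33 with the replicate block, none of them among the 8. The median over the 8 genes was 0.03, against 0.00 over all tested genes.

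The intervals give, gene by gene, the folds compatible with these libraries, not the smallest change that would have been called. The 95% interval of the fold in sgZNF146 was 0.842 to 1.15 for NAGPA, 0.861 to 1.14 for GNPTG, 0.927 to 1.13 for IGF2R and 0.913 to 1.35 for SUMF1. For GNPTAB, M6PR, SORT1 and SUMF2 the intervals lay between 0.916 and 1.20. Both sgZNF146 libraries were above both EV libraries for GNPTAB and SUMF2, 2 of the 8, where 14% of all tested genes had that order.

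Set directly against sgZNF146, the sgZNF507 libraries gave log2 differences of 1.19 for NAGPA (standard error 0.10), 0.82 for GNPTG (0.09), 0.68 for SUMF1 (0.12) and 0.38 for IGF2R (0.06). Those of GNPTAB, M6PR, SORT1 and SUMF2 were between -0.08 and 0.04. NAGPA, GNPTG and IGF2R had an adjusted p under 0.05 and SUMF1 did not, where 0.104% of all tested genes were called higher. Both sgZNF507 libraries were above both sgZNF146 libraries for the 4 genes (15.5% of all tested genes) and below both for GNPTAB and SUMF2 (16.5%). This comparison uses the same sgZNF507 libraries as the first and adds no separate measurement of them. Without sgZNF146 replicate 1 or 2, EV replicate 1 or 2, or sgZNF507 replicate 1, IGF2R was no longer called here. Fewer of all tested genes were called in those fits too.

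**Figure D3:**
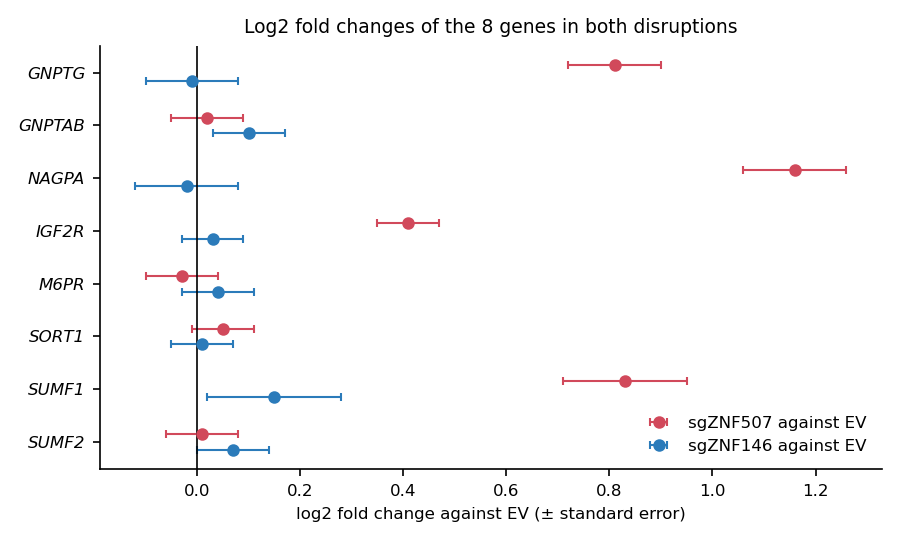
Log2 fold changes of the 8 genes against EV (point) with their standard errors (bars), in sgZNF507 (red) and sgZNF146 (blue). NAGPA, SUMF1, GNPTG and IGF2R lie at 1.16, 0.83, 0.81 and 0.41 in sgZNF507 and at -0.02, 0.15, -0.01 and 0.03 in sgZNF146, and the other genes lie between -0.03 and 0.10 in both.

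Levels can be compared between genes only per length. Taking the union of a gene's exons as its length, the EV libraries had 22.8 ± 0.188 RPKM of M6PR (CPM per kilobase of exon, SD, n = 2), 15.7 ± 0.501 of SUMF2, 14.2 ± 0.0489 of SORT1, 13.4 ± 0.716 of IGF2R, 5.83 ± 0.820 of NAGPA, 5.66 ± 0.202 of GNPTG, 5.06 ± 0.0968 of GNPTAB and 1.25 ± 0.0626 of SUMF1. The libraries of NAGPA and GNPTG overlapped, and SORT1 lay just above both IGF2R libraries (13.9 and 12.9 RPKM). The median of 14744 tested protein-coding genes was 4.49 RPKM, so that SUMF1 was the one gene of the 8 below it. In sgZNF507 NAGPA reached 13.1 ± 0.453 RPKM (SD, n = 2), near the EV level of IGF2R. With the longest transcript as the length, SUMF2 (31.3 RPKM) and M6PR (31.2) became level, and IGF2R (21.2) stood above SORT1 (18.6).

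None of the nearest neighbours of the 8 genes on their chromosomes was called. NAGPA and GNPTG both lie on chromosome 16, where the median log2 fold change of 690 tested protein-coding genes in sgZNF507 was 0.01, and IGF2R and SUMF1 lie on chromosomes 6 and 3, with medians of 0.02 and -0.01. The nearest tested protein-coding gene on each side was taken, 16 genes in all, and the lack of a call holds for each of the 3 comparisons. TSR3, which starts on the opposite strand 53 bases from GNPTG, had 72.8 and 82.6 CPM in EV and 88.1 and 83.6 CPM in sgZNF507 (log2 0.14, standard error 0.08). UQCC4 on the other side of GNPTG had 0.05 (0.11). CRBN and ITPR1, on either side of SUMF1, had 0.03 (0.11) and 0.12 (0.07).

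Other neighbours were counted too rarely for a narrow estimate. SEC14L5 and C16orf89 beside NAGPA, with 0.241 to 1.59 CPM, had log2 fold changes of -0.10 (standard error 0.28) and 0.51 (0.51), and PNLDC1 beside IGF2R, with 0.615 to 2.37 CPM, had -0.22 (0.47). Beside the members that stayed near their EV levels, CHPT1 and DRAM1 flank GNPTAB, at -0.04 (0.08) and 0.34 (0.17). A2ML1 and KLRG1 flank M6PR, at -0.45 (0.26) and -0.14 (0.18). PSRC1 and PSMA5 flank SORT1, at 0.05 (0.09) and 0.01 (0.07), and CCT6A and CHCHD2 flank SUMF2, at -0.05 (0.06) and 0.02 (0.06).

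**Figure D4:**
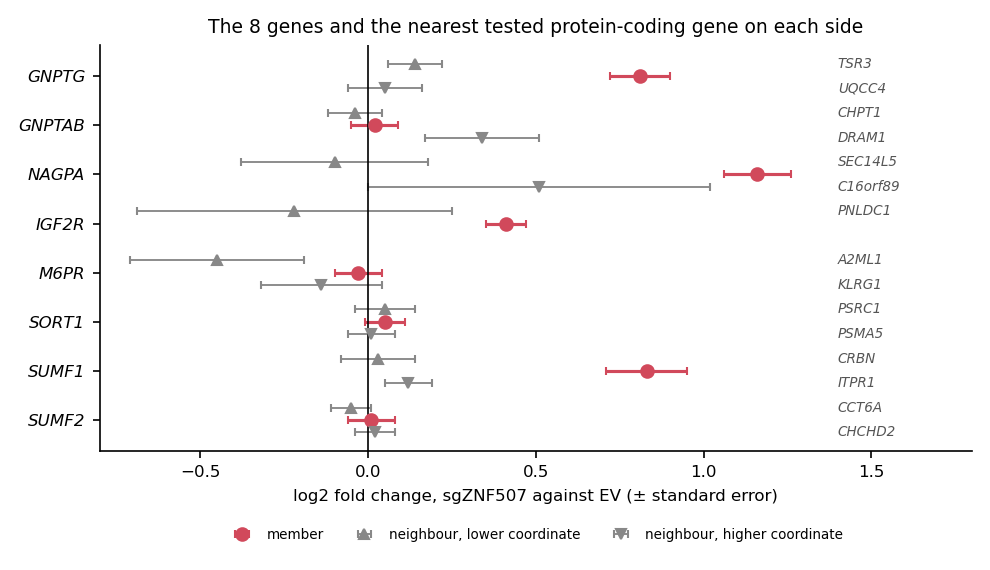
Log2 fold change in sgZNF507 against EV (± standard error) of the 8 genes (circles) and the nearest tested protein-coding gene at lower (upward triangles) and higher (downward triangles) coordinates, with 1 neighbour of IGF2R left out. GNPTG at 0.81 stands apart from TSR3 at 0.14 and UQCC4 at 0.05, and SUMF1 at 0.83 from CRBN at 0.03 and ITPR1 at 0.12, while the wide bars beside NAGPA and IGF2R belong to genes with few counts.

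Several of the genes share exon bases with another gene, and the strand option used in counting is not given in the sources used here. NAGPA shares 301 exon bases with ALG1 on the opposite strand, whose log2 fold change was 0.22, and GNPTG shares 2533 with UNKL, whose own was -0.03. IGF2R holds the processed pseudogene CHP1P2 on its own strand, over 571 exon bases, with 171 to 287 counts a library. M6PR shares 1105 bases with PHC1 (0.06), SUMF2 shares 388 with PHKG1 (0.15), and SUMF1 shares 190 with LRRN1, which had 0 to 1 counts. The part of these overlaps in the counts was not tested.

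Genes whose profile over the 6 libraries was most like that of a higher member were found by the root mean square difference of centred log2 CPM, among 17274 genes that were not members and had a mean of at least 1 CPM. The sgZNF507 libraries, on which the members were chosen, are among the 6. Genes near a higher member therefore had to be higher there too, and the names that follow are a description only. GNPTG was nearest to SPNS1, a lysosomal lipid transporter (0.0466), then RBM19, a protein of ribosome assembly (0.0887), and GATB, a subunit of the mitochondrial glutaminyl-tRNA amidotransferase (0.0922). SUMF1 had the same 3 in the same order, at 0.0726, 0.0745 and 0.0903. IGF2R was nearest to VAC14, a scaffold of the kinase that makes PI(3,5)P2 (0.0279), ALG1L1P (0.0368) and GET3, which targets tail-anchored proteins (0.0370). NAGPA was nearest to COMMD9, a subunit of the Commander endosomal complex (0.141), SPNS1 (0.177) and ENSG00000229955 (0.179). SPNS1 had 6.11 and 6.19 CPM in EV, 5.67 and 7.11 CPM in sgZNF146 and 11.1 and 11.7 CPM in sgZNF507, a pattern like those of GNPTG and SUMF1.

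The mark is carried by soluble lysosomal hydrolases. Of 36 lysosomal hydrolases listed for the mannose 6-phosphate pathway, 35 were tested and 3 were called in sgZNF507, 2 higher and 1 lower, where 0.182% of all tested genes were called in either direction. The list was written with earlier results of these data known. Neither that count nor the adjusted p-values of its genes in this comparison are therefore evidence about the list. The list had a median log2 fold change of -0.01 against 0.00 over all tested genes. GLA, alpha-galactosidase A, had 85.6 and 74.8 CPM in EV, 92.2 and 97.0 CPM in sgZNF146 and 148 and 132 CPM in sgZNF507, and rose 1.75-fold (log2 0.80, standard error 0.08, adjusted p = 5.68e-04 from the edgeR quasi-likelihood test). The sgZNF507 libraries were the highest, and those of sgZNF146 lay between them and EV.

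CTSA, cathepsin A, rose from 73.4 and 76.6 CPM in EV to 113 and 96.4 CPM in sgZNF507 (log2 0.48, standard error 0.08, adjusted p = 0.0266, edgeR). HEXA, the alpha subunit of beta-hexosaminidase, fell from 63.4 and 63.8 CPM to 44.8 and 48.0 CPM (log2 -0.45, standard error 0.07, adjusted p = 0.0266, edgeR). In sgZNF146, CTSA and HEXA each had a log2 fold change of -0.03 and GLA had 0.24 (standard error 0.08), and no gene of the list was called. With each library left out in turn, GLA kept its call in 6 of 6 fits, whereas CTSA and HEXA kept theirs in 1 of 6, without sgZNF507 replicate 2. For CTSA the adjusted p reached 0.443 without EV replicate 1, and for HEXA it reached 0.274 there. On the opposite strand, GLA shares 557 exon bases with RPL36A (679 to 892 counts) and CTSA shares 959 with NEURL2 (50 to 116 counts), and HEXA shares 617 on its own strand with a gene of 9 to 20 counts.

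SUMF1 activates the sulfatases. Of 17 listed, 14 were tested and 0 were called in sgZNF507 or sgZNF146, with medians of 0.01 and 0.03. With 0.182% and 0% of all tested genes called in these comparisons, the absence of a call in a list of this size is no result about the list, which holds for each of the lists that follow. ARSD, an arylsulfatase of unsettled substrate, lay farthest from 0 in sgZNF507, with 1.33 and 1.37 CPM in EV and 0.694 and 1.35 CPM in sgZNF507 (log2 -0.37, standard error 0.32). The partners of SUMF1 in the early secretory pathway, P4HB, ERP44 and LMAN1, were all tested and not called. ERP44, which retains SUMF1 in the endoplasmic reticulum, was at -0.20 (standard error 0.10).

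The lists for the machinery around the receptors had no call. None of 16 genes of receptor export at the trans-Golgi network (GGA adaptors, AP-1 and clathrin) and none of 12 genes of retrieval from endosomes (retromer, sorting nexins and others) was called in sgZNF507, each group having a median of 0.01. The farthest were AP1M2, an AP-1 subunit counted at under 1 CPM in every library, at 0.25 (standard error 0.33), and RAB9A, a GTPase of the late endosome, at 0.22 (0.10). Both genes that act on the phosphotransferase, MBTPS1, the protease that cleaves its precursor, and LYSET, which holds it in the Golgi, were tested and not called, and LYSET was at -0.18 (0.14). Of the relatives of sortilin, 3 of 4 were tested and 0 were called, with SORCS2 at 0.29 (0.32).

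Of 5 listed genes of delivery without the mark, all were tested and 0 were called in sgZNF507 against EV, with a median log2 fold change of 0.01. None of the lists had a call in sgZNF146 against EV.

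**Figure D5:**
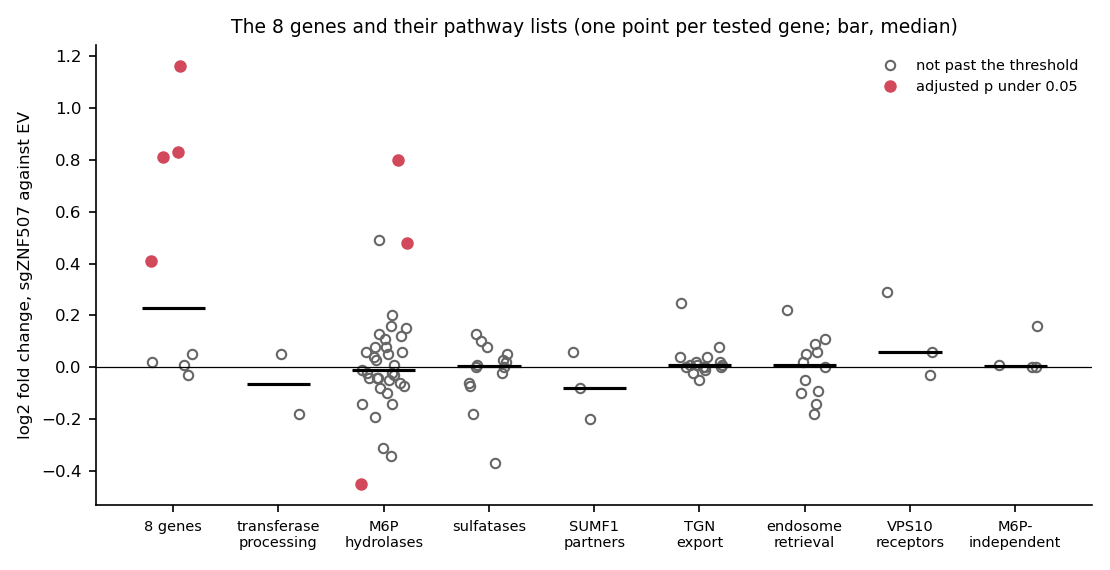
Log2 fold change in sgZNF507 against EV of the 8 genes and of the tested genes of each pathway list, with 1 gene of delivery without the mark left out (one point per gene, spread sideways for legibility; bar, median; filled red, adjusted p under 0.05; open, not). The medians of the hydrolases, sulfatases, export and retrieval genes lie at -0.01 to 0.01, with GLA at 0.80, CTSA at 0.48 and HEXA at -0.45 filled, and the filled points among the 8 genes are those the group was chosen with.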

How the data were processed

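RNA-seq of 6 HEK293 libraries was analysed, 2 each of EV, sgZNF146 and sgZNF507, grouped by their labels. According to the methods, the authors made ribosome-depleted strand-specific paired-end libraries, removed ribosomal reads, mapped the rest to the human genome (hg19, the same assembly as GRCh37) with TopHat2 and counted per Ensembl gene with featureCounts. The deposited values are raw counts per gene, without normalization. Counting used no molecular identifiers, so duplicates count as reads. Replicates differed beyond sampling noise (chi-square per degree of freedom 6.38 to 9.60), so none was a repeated deposit.

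Counts were filtered (filterByExpr), scaled by TMM and tested with edgeR 4.0.16 under R 4.3.3, all 6 libraries in one fit, with Benjamini-Hochberg adjustment over 22010 genes and a threshold of 0.05. DESeq2 1.42.0 was an alternative. CPM are scaled counts, and RPKM divide these by the exon union of GENCODE release 44 on GRCh37, in which 55538 of 57773 identifiers (96.1%) were found. Standard errors were computed from the F statistic, and 95% intervals use 12.5 degrees of freedom. Steps were tested on simulated data. Plots used matplotlib 3.10.9 (Python 3.11.15).

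The members and the lists were chosen with earlier results of these data known. Named beside the members are both targeted genes, the nearest tested protein-coding gene on each side, the 3 nearest profiles of each called member and, from each list, every called gene or otherwise the one farthest from 0 in sgZNF507 against EV. Alternatives were other scalings, filters, tools and libraries in the fit, a replicate block, each library left out, and another gene length. Indels and protein levels were not analysed here, and 2 genes that this rule names are not reported here.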

Additional observations from a re-analysis of the deposited data

How the results depend on the processing

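Normalization by DESeq2's size factors or upper quartile, both other filters, DESeq2 on 6 or 4 libraries and edgeR on 4 libraries left the direction of each member's fold change in place, and 3 to 4 members were called in sgZNF507 against EV, 0 in sgZNF146 against EV and 2 to 4 in sgZNF507 against sgZNF146. With each library left out, the count in sgZNF507 against EV ranged from 1 to 4 and that against sgZNF146 from 2 to 3. Fits without a library assume that the lone one of its group varies like the others. IGF2R lost its call against EV with edgeR on 4 libraries. SUMF1 gained one against sgZNF146 with no filter, with DESeq2 on 6 libraries and with the block. The cause of these shifts was not tested. The members were chosen on the sgZNF507 libraries, so their calls in comparisons with sgZNF507, here and below, are a description only.

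Only fold changes near 0 turned sign, and only with a library left out. Their log2 ranges were -0.05 to 0.01 for M6PR and -0.03 to 0.06 for SUMF2 in sgZNF507 against EV. In sgZNF146 against EV they were -0.16 to 0.12 for NAGPA, -0.13 to 0.10 for GNPTG, -0.03 to 0.09 for IGF2R, -0.01 to 0.08 for M6PR and -0.05 to 0.07 for SORT1. For SORT1 in sgZNF507 against sgZNF146 the range was -0.02 to 0.10.

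The labels number the replicates 1 and 2 in each group but do not say that a number marks a shared culture or day. Across genes, the correlation of replicate 1 deviations was r = 0.138 between EV and sgZNF146, 0.176 between EV and sgZNF507 and 0.145 between sgZNF146 and sgZNF507. With the replicate block, 4 members were called in sgZNF507 against EV, 0 in sgZNF146 against EV and 4 in sgZNF507 against sgZNF146, and among all tested genes 121, 33 and 196 were called in place of 40, 0 and 38. Without a filter these counts were 101, 19 and 112. With a library left out they were 12 to 44, 0 to 3 and 13 to 37. Depth limits SUMF1 most, at 208 to 455 counts a library, and 2 libraries a group limit all intervals.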

Other observations

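The motif described for the starts of the higher members was also counted over all genes called in sgZNF507 against EV, after it had been seen in the members. A RefSeq window was found for 13158 tested genes, of which 11.9% held CACGTG and 2.01% held TCACGTGA. The higher members, in which the motif was picked, are among the genes called higher, so their shares are partly fixed by that choice. Of the 21 genes called higher that had a window, 17 (81.0%) held CACGTG and 10 (47.6%) held TCACGTGA. Beside NAGPA, GNPTG, IGF2R and SUMF1 these were COMMD9 (log2 fold change 0.94), SPNS1 (0.89), RBM19 (0.68), VPS11 (0.65), LAMP1 (0.63), SLC38A7 (0.61), SLC35B2 (0.49), CTSA (0.48), CLCN7 (0.45), GET3 (0.44), BAX (0.41), VAC14 (0.39) and ATP6V0D1 (0.39). GLA, GATB and SMCR8 were higher with no CACGTG in their windows, as was RAB17.

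The motif was not particular to genes that were higher, although few genes called lower had a window. Of the 15 genes called lower, 5 had a window, and 4 of these (80.0%) held CACGTG. They were SNX8 (-0.55), WDR81 (-0.70), GPRASP3 (-0.76) and ZNF507 (-0.62), the last being the gene that the guides cut. GLMP, a glycosylated lysosomal membrane protein (-1.71), held none. Nor did most genes with the motif differ. The 1568 tested genes with CACGTG had a median log2 fold change of -0.01, 17 of them (1.08%) were called higher and 4 (0.255%) lower, against 4 (0.0345%) and 1 (0.00863%) of the 11590 without it. Of the listed hydrolases with a window, 7 of 28 held CACGTG. ACP5 was not tested, and of the others CTSA was called and GAA, CTSD, CTSF, NEU1 and PLBD2 were not. The counts of genes called higher include the members in which the motif was picked. All these shares are descriptions over genes, which are not independent, and no test was made of them.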
